A study of Mus musculus with 5 samples.

Results

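The window chr3:87740000-87840000 of the mouse genome build mm9 is 100 kb long and holds Nes (NCBI Gene 18008) near 87.775 Mb and Bcan (NCBI Gene 12032) near 87.79 Mb. Its members are all peaks, in 5 deposited lists of chromatin immunoprecipitation with sequencing (ChIP-seq), that overlap the window by at least 1 bp. There were 33 of them among 258727 peaks in all. The lists for acetylated lysine 27 of histone H3 (H3K27ac) gave 5 members in Olig2cKO tumours and 6 in control tumours. The lists for trimethylated lysine 4 of histone H3 (H3K4me3) gave 8 in Olig2cKO tumours and 10 in control tumours, and the Olig2 list of control tumours gave 4.

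The samples were brain tumours (gliomas) induced by a PDGFB virus in mice of a mixed C57Bl/6;129Sv;CD-1 background and taken 25 days after injection. Olig2cKO tumours carried floxed Olig2 alleles (Olig2f/f) on top of the floxed alleles of control tumours, so those of control tumours, P53f/f among them, were common to all groups. The sources used here give neither the source of the recombinase nor the number of tumours behind a library. There was 1 library per group, Olig2 was mapped in control tumours, and the loss of Olig2 in Olig2cKO tumours was not checked. With 1 library on each side, no difference below could be set against replicates, and no p-value is given. A region without a listed peak is one where no peak passed the authors' threshold, which does not show that the mark was absent.

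Nes codes for nestin, an intermediate filament protein of neural stem and progenitor cells that is widely used as a marker in gliomas. Bcan codes for brevican, a chondroitin sulfate proteoglycan of the brain's extracellular matrix that is abundant in glioma and in glial cells. Olig2 is a basic helix-loop-helix transcription factor of the oligodendrocyte lineage, and factors of this class bind E-boxes, short sites of the form CANNTG. H3K27ac lies at active promoters and enhancers, while H3K4me3 lies mainly at promoters.

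Nes and Bcan were direct neighbours among protein-coding genes of the RefSeq table of build GRCm38.p6, with Nes on the plus strand and Bcan on the minus strand, so the genes are read towards each other. Crabp2, which codes for a retinoic acid binding protein, came next to Nes, and Hapln2, which codes for a link protein of the brain's extracellular matrix, came next to Bcan. Gene positions on mm9 other than the approximate positions above were not used here. Peaks are given by their position on mm9, and which of them covers the start of Bcan was not determined.

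The promoters of both genes are shown as the reference letters of the genes that name the window. H3K4me3, a promoter mark, was listed in both genotypes at or beside each approximate position, but that of Bcan may lie nearer the end of the gene than its start, so a peak there need not be at its promoter. The 250 bases before each start come from RefSeq on build GRCm38.p6 and are written in the direction of transcription. Capitals mark the GC box, searched as GGGCGG on both strands, which is a known site of Sp family factors.
Nes promoter: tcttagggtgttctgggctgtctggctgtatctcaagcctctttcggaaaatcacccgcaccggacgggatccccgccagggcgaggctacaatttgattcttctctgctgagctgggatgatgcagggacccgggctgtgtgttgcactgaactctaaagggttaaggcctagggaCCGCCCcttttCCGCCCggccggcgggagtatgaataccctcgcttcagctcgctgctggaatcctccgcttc
Bcan promoter: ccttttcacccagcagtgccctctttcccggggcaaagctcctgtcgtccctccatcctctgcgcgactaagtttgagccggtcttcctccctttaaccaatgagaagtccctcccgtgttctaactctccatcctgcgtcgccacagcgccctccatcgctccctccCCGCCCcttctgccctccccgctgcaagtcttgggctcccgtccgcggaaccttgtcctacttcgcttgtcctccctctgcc

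The Nes stretch held 2 GC boxes and the Bcan stretch held 1, where 32.7% of all 32851 promoter stretches of this length held at least 1. This motif was chosen after the sequences were seen, and the nearby promoters of Rrnad1, Isg20l2 and Naxe held 2, 1 and 4 of it while that of Hapln2 held 0. Neither stretch held an E-box as spelled out above, which reads the same on both strands and was present in 66.2% of all promoter stretches. Among its forms, CAGCTG was present in 13.0% of all stretches and 1 time each in the nearby promoters of Rrnad1, Isg20l2 and Hapln2. Bases made up of G or C were 58.8% of the Nes stretch and 62.0% of the Bcan stretch, against a median of 52.4% over all stretches. These counts describe letters in 250 bases and say nothing of binding elsewhere in the genes.

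Peaks of the 4 histone lists joined into 8 marked regions in the window, numbered here along the chromosome. H3K4me3 was listed in both genotypes in 8 of the 8 regions, against 41.4% of all 91232 marked regions of the genome. H3K27ac was listed in both genotypes in 4 of the 8 (regions 5 to 8), against 49.6% of all regions. Regions 1 and 4 held H3K4me3 alone in both genotypes, a pattern of 9.94% of all regions. In regions 2 and 3 H3K4me3 was listed in both genotypes and H3K27ac in control tumours alone, a pattern of 2.02% of all regions. Regions 5 to 8 were the longest, from 3.21 to 7.24 kb, while the other 4 measured 1.51 to 1.67 kb.

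**Figure D1:**
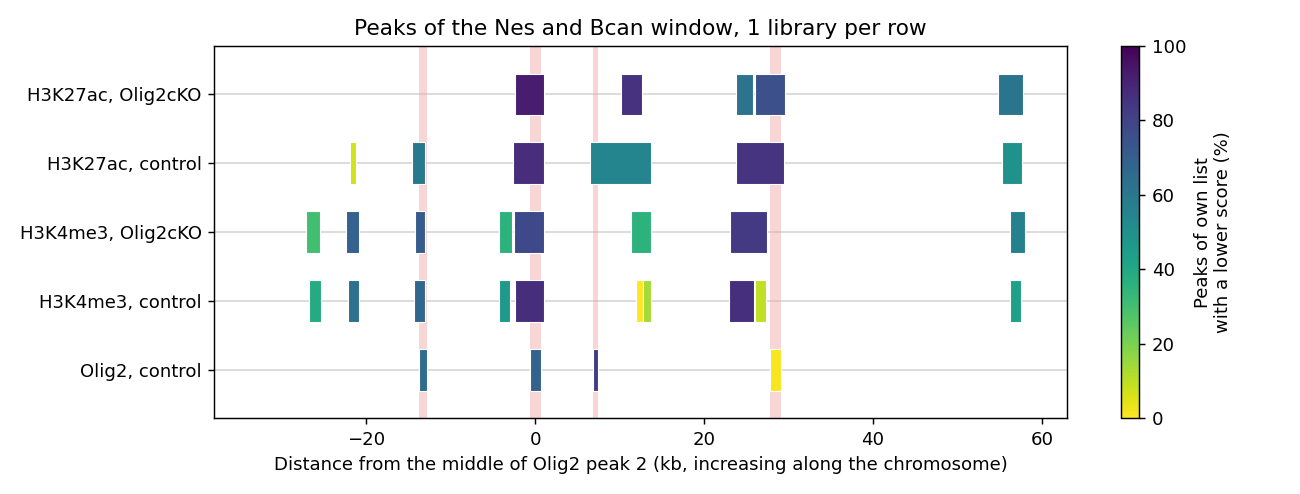
Peaks of the 5 libraries across the window, as distance in kb from the middle of the Olig2 peak nearest to the Nes position. Each bar is 1 peak drawn to scale, its colour gives the share of its own list with a lower score, and pale bands mark the 4 Olig2 peaks. The Olig2cKO H3K27ac row has no bar at Olig2 peaks 1 and 3, the first and the third band from the left, where the control row has one.

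Region 4, from 87773913 to 87775451, contained the approximate position of Nes. Its H3K4me3 peak was 1539 bp wide in Olig2cKO tumours and 1306 bp wide in control tumours, and neither H3K27ac list held a peak there. The scores of these peaks, which the authors' peak caller assigned and which rank peaks only inside a list, were above those of 35.8% of the Olig2cKO list and 45.9% of the control list. Both are below the middle of their lists.

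Region 5 began 169 bp after region 4, ran from 87775620 to 87779309 and carried both marks in both genotypes with nearly equal extents. H3K27ac covered 3482 bp in Olig2cKO tumours and 3623 bp in control tumours, and H3K4me3 covered 3461 bp in Olig2cKO tumours and 3482 bp in control tumours. The H3K27ac peak of region 5 scored above 91.9% of the Olig2cKO list and was the highest of the window there. In the control list the peak scored above 87.4% and was also the highest of the window. For H3K4me3 the peak of region 5 scored above 77.8% of the Olig2cKO list and 87.1% of the control list. Among the regions, this one, which lay next to the Nes position, stood highest for H3K27ac in both lists.

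Region 6, from 87784738 to 87791979, contained the approximate position of Bcan, which need not be its start, and showed the largest difference in H3K27ac extent in the window. H3K27ac covered 2556 bp there in Olig2cKO tumours, from 87788364 to 87790919. In control tumours 1 peak of 7242 bp covered the whole region. The Olig2cKO peak began 3626 bp further along and ended 1060 bp earlier than the control peak, so that 35.3% of the control peak was covered. The narrower Olig2cKO peak scored above 85.9% of its own list and the wide control peak above 54.3% of its own list, and these scores are not comparable between libraries. Of 4 control H3K27ac peaks of the window with a partner, this 1 had under 50% of its length covered, against 3.97% of such peaks of the whole list. Of 1324 control H3K27ac peaks of 5 kb or more with an Olig2cKO partner, 141 (10.6%) had under 50% of their length covered, and 3.02% were covered as little as the peak of region 6. The median coverage of such peaks was 90.9%.

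H3K4me3 in region 6 ran the other way from H3K27ac, with 1 peak of 2334 bp in Olig2cKO tumours and 2 peaks of 787 and 895 bp in control tumours. Together the control peaks covered 1682 bp. The control peaks were weak in their list, scoring above 0.00672% and 13.4% of it, and the first had a score of 50.05 where the lowest of the list was 50.00. The Olig2cKO peak scored above 35.8% of its list. Both H3K4me3 signals lay in the part of the region further from Nes.

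Region 7, from 87801189 to 87807806, carried the other strong H3K4me3 peaks. H3K4me3 formed 1 peak of 4397 bp in Olig2cKO tumours, scoring above 83.0% of the list. In control tumours there was a peak of 2892 bp scoring above 86.0% and a weak one of 1346 bp scoring above 9.42%. H3K27ac was split the opposite way, into 2 peaks of 2007 and 3522 bp in Olig2cKO tumours, against 1 peak of 5707 bp in control tumours. The covered length hardly differed, at 5529 bp of H3K27ac in Olig2cKO tumours and 5707 bp in control tumours. Over the whole lists, 5.71% of Olig2cKO H3K4me3 peaks overlapped more than 1 control peak, and 3.69% of control H3K27ac peaks overlapped more than 1 Olig2cKO peak.

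Region 8, from 87833041 to 87836253, stood apart at the far end of the window. H3K27ac covered 2959 bp in Olig2cKO tumours and 2340 bp in control tumours, and H3K4me3 covered 1829 bp in Olig2cKO tumours and 1367 bp in control tumours. No Olig2 peak lay in it.

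Regions 1 to 3 lay before Nes. Region 1, from 87751130 to 87752798, had H3K4me3 over 1665 bp in Olig2cKO tumours and 1394 bp in control tumours and no H3K27ac peak. Region 2, from 87755864 to 87757410, had H3K4me3 over 1547 bp in Olig2cKO tumours and 1361 bp in control tumours, scoring above 69.4% of the Olig2cKO list and 62.5% of the control list. Its H3K27ac peak, from 87756318 to 87757053, was listed in control tumours alone and was weak, with a score of 58.39 that was above 6.92% of the control list. Region 3, from 87763631 to 87765139, had H3K4me3 over 1080 bp in Olig2cKO tumours and 1222 bp in control tumours, scoring above 71.3% of the Olig2cKO list and 67.1% of the control list. Its H3K27ac peak covered all 1509 bp of the region in control tumours, scored 232.22 and stood above 59.4% of the control list, and the Olig2cKO list held no peak within 10.7 kb of it.

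**Figure D2:**
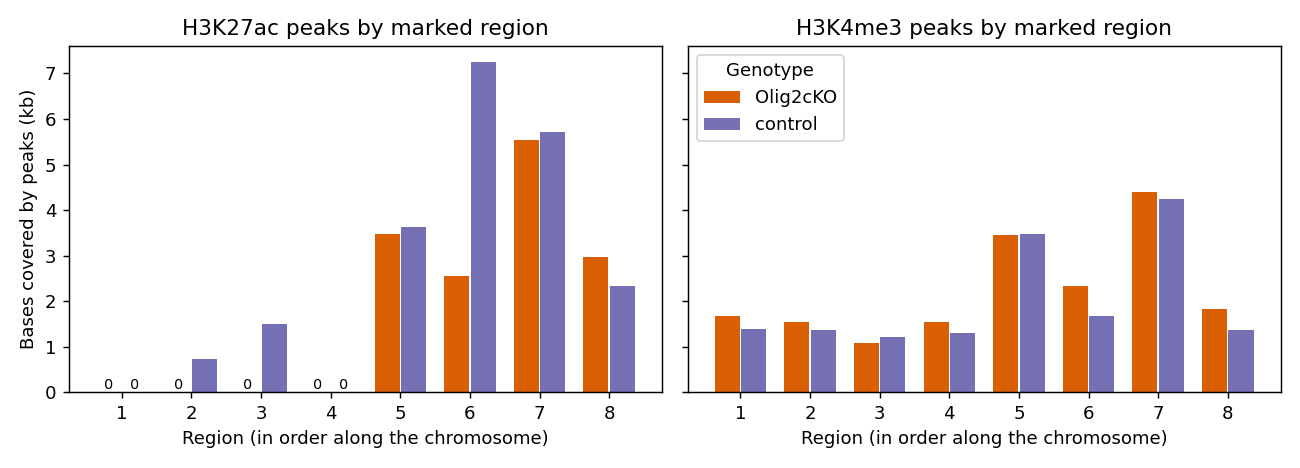
Bases covered by H3K27ac peaks (left) and H3K4me3 peaks (right) in each of the 8 marked regions, in kb, with Olig2cKO bars left of control bars and 1 library per bar. H3K27ac differs most in region 6, at 2556 bp in Olig2cKO and 7242 bp in control tumours, and H3K4me3 is present in both genotypes in all 8 regions.

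The comparison of genotypes asked which marked sites of the locus Olig2cKO tumours shared with control tumours. For H3K27ac, 0 of 5 Olig2cKO peaks and 2 of 6 control peaks had no partner in the other genotype, where 30.9% of the whole Olig2cKO list and 17.9% of the whole control list had none. For the 0 of 5 the exact (Clopper-Pearson) 95% interval reached up to 52.2%. The 2 of 6 is a share of 33.3% with an interval of 4.33 to 77.7%. Both intervals include the share of the list. Such intervals include no error but that of counting, and peaks that lie side by side are not independent of each other. The 2 control peaks without a partner were those of regions 2 and 3. In the score class of the first, the lowest decile of the control list, 44.0% of peaks had no partner. In that of the second, the sixth decile, 12.7% had none, and among the 1627 peaks of that decile that also carried Olig2 and control H3K4me3, 122 (7.50%, 6.27 to 8.89) had none.

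For H3K4me3, 0 of 8 Olig2cKO peaks and 0 of 10 control peaks lacked a partner, against 21.4% of the Olig2cKO list and 8.13% of the control list. The exact 95% interval reached up to 36.9% for the Olig2cKO peaks and 30.8% for the control peaks, so a share near that of the lists cannot be told from 0 here.

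Counted in bases, the marks stood in opposite order. H3K27ac covered 14526 bp of the window (14.5%) in Olig2cKO tumours and 21157 bp (21.2%) in control tumours. Of the H3K27ac bases, 13734 were covered in both genotypes, 792 in Olig2cKO tumours alone and 7423 in control tumours alone. Region 6 held 4686 of these last bases, and regions 2 and 3 held 736 and 1509. H3K4me3 covered 17852 bp (17.9%) in Olig2cKO tumours and 16052 bp (16.1%) in control tumours, with 15706 bp in both, 2146 bp in Olig2cKO tumours alone and 346 bp in control tumours alone. Part of the H3K27ac extent of control tumours alone lay on chromatin with an H3K4me3 peak in both genotypes, in regions 2, 3 and 6 among others. In region 6 the control H3K4me3 peak of 895 bp lay in such a stretch.

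The window's H3K27ac difference, at -6631 bp (Olig2cKO minus control), was low among windows of its size. Of 3228 consecutive windows of 100 kb with at least 10 kb of control H3K27ac, 4.58% had as low a difference, and their median was 724 bp. The share of control H3K27ac bases that Olig2cKO peaks also covered was 64.9% here, against a median of 79.8% in those windows, of which 20.8% had as small a share. For H3K4me3 the difference of 1800 bp stood near the median of 1320 bp over 934 windows chosen in the same way. Covered length can depend on the depth of a library, which is unknown here, and its part in these differences was not tested.

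H3K27ac and H3K4me3 were also compared within each genotype. In Olig2cKO tumours 4 of 8 H3K4me3 peaks carried H3K27ac (exact 95% interval 15.7 to 84.3%), against 8 of 10 in control tumours (44.4 to 97.5%), where 66.7% of the whole Olig2cKO list and 66.6% of the whole control list did. Both intervals include the share of the list. The H3K4me3 peaks of both genotypes lie in the same 8 regions, so they are not independent and the intervals do not compare the genotypes. By region, both marks were listed in 4 of 8 regions in Olig2cKO tumours and in 6 of 8 in control tumours. Over all 91232 marked regions of the genome the order was the reverse, at 34.9% for Olig2cKO and 30.3% for control tumours. The difference lay in regions 2 and 3, where H3K27ac was listed in control tumours alone. The 8 control peaks fell in 6 regions because the control H3K4me3 of regions 6 and 7 was split into 2 peaks each. Of H3K4me3 bases in the window, 54.1% were also acetylated in Olig2cKO tumours and 74.0% in control tumours. The same share of bases was not computed for the whole lists. From the side of H3K27ac, 5 of 5 Olig2cKO peaks (exact 95% interval 47.8 to 100%) carried H3K4me3 of the same genotype. So did 6 of 6 control peaks (54.1 to 100%). The shares of the whole lists were 49.7% for Olig2cKO and 50.2% for control tumours. The Olig2cKO interval includes the share of its list and the control interval lies above its own, but peaks side by side are not independent. No H3K27ac peak of the window was thus free of H3K4me3, though parts of the wide ones were.

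The peaks differed in how they ranked in their own lists. H3K27ac scores ran from 230.10 to 731.58 in Olig2cKO tumours and from 58.39 to 658.91 in control tumours, where the median of the whole list was 167.9 for Olig2cKO and 176.9 for control tumours. H3K4me3 scores ran from 155.11 to 1286.16 in Olig2cKO tumours and from 50.05 to 1677.68 in control tumours, with list medians of 328.5 for Olig2cKO and 345.2 for control tumours. The strongest H3K4me3 peak was that of region 7 in Olig2cKO tumours and that of region 5 in control tumours. In the control list, the peak of region 7 followed closely, with a score of 1593.00.

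**Figure D3:**
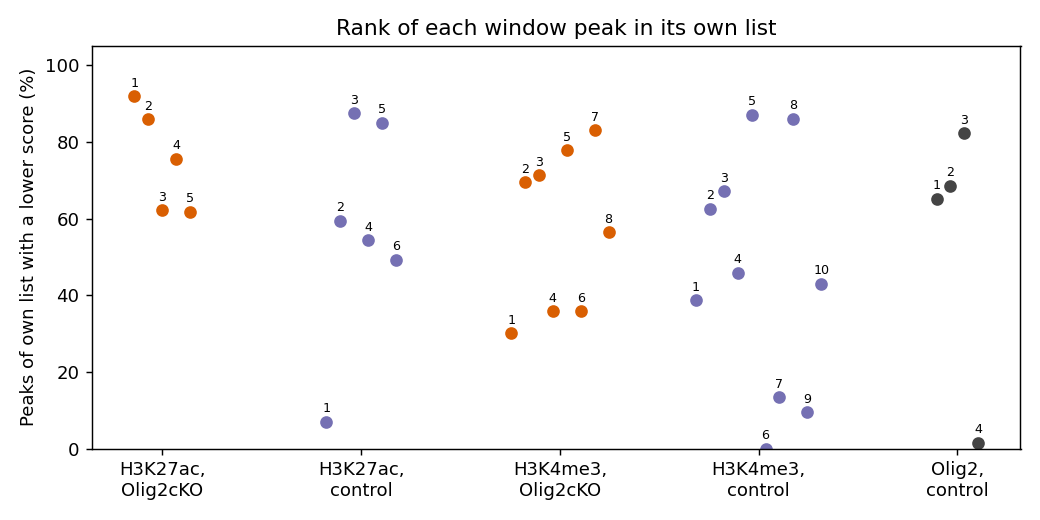
Share of each list with a lower score than each window peak, in percent, with each point 1 peak numbered along the chromosome and each column 1 library. The Olig2cKO H3K27ac peaks all stand above 60% of their list, while control H3K27ac peak 1 stands above 6.92% and control H3K4me3 peaks 6, 7 and 9 stand below 15%.

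Of the 4 Olig2 peaks, 2 overlapped Olig2cKO H3K27ac and 4 overlapped control H3K27ac. Over all 39201 Olig2 peaks the shares were 70.2% for Olig2cKO H3K27ac and 68.9% for control H3K27ac. Of Olig2 peaks on control H3K27ac, 2 of 4 (50.0%, exact 95% interval 6.76 to 93.2) thus had no Olig2cKO H3K27ac, against 8.86% of all such Olig2 peaks. H3K4me3 overlapped 2 of the 4 in Olig2cKO and the same 2 in control tumours, against 58.1% of all Olig2 peaks for Olig2cKO H3K4me3 and 55.6% for control H3K4me3. Of the Olig2 peaks on Olig2cKO H3K27ac, 0 of 2 had no control H3K27ac, where 10.6% of all such peaks had none. For H3K4me3, 0 of 2 Olig2 peaks on Olig2cKO peaks lacked the mark in control tumours, against 11.1% of all such peaks, and 0 of 2 on control peaks lacked it in Olig2cKO tumours, against 6.91%. Seen from the histone lists, Olig2 lay in 2 of 5 Olig2cKO and 4 of 6 control H3K27ac peaks, against 42.5% of the Olig2cKO list and 49.5% of the control list. It lay in 2 of 8 Olig2cKO and 2 of 10 control H3K4me3 peaks, against 50.3% of the Olig2cKO list and 55.7% of the control list. The Olig2 map comes from control tumours, which can favour sites that are marked in them, and this was not tested.

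Olig2 peak 1, from 87764503 to 87765415 with a score of 123.20, overlapped region 3 and ran past the region's end at 87765139. The middle of this Olig2 peak lay 10.0 kb before the approximate position of Nes. Olig2cKO H3K27ac covered 0 of its 913 bp and control H3K27ac covered 637 bp (69.8%), while H3K4me3 covered 67.6% in Olig2cKO and 66.8% in control tumours. The nearest Olig2cKO H3K27ac peak was 10.4 kb away. At this site the Olig2cKO lists thus held an H3K4me3 peak of nearly the control extent and no H3K27ac peak. Among 17507 Olig2 peaks with control H3K27ac and with H3K4me3 in both genotypes, 848 (4.84%, 4.53 to 5.17) had no Olig2cKO H3K27ac.

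Olig2 peak 2, from 87777583 to 87778859 with a score of 132.63, lay in region 5, 3.22 kb beyond the approximate position of Nes. All 1277 bp were covered by both marks in both genotypes. This pattern was shared by 42.5% of all Olig2 peaks, the most common among the 4 sites.

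Olig2 peak 3, from 87785007 to 87785711, had the highest Olig2 score of the window at 185.59, above 82.2% of the Olig2 list. It lay between the approximate positions of the genes, 10.4 kb beyond that of Nes and 4.64 kb before that of Bcan. Its middle was 621 bp from the Nes-side end of the wide control H3K27ac peak of region 6, which covered all 705 bp. Olig2cKO H3K27ac covered 0 bp, and its nearest peak began 2.65 kb away, inside the same region. Neither genotype had H3K4me3 on it. Of 6764 Olig2 peaks with control H3K27ac and with H3K4me3 in neither genotype, 1264 (18.7%, 17.8 to 19.6) had no Olig2cKO H3K27ac.

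Olig2 peak 4, from 87806051 to 87807375, was among the weakest of its list, with a score of 50.67 that was above 1.45% of the Olig2 peaks. It lay at the far end of region 7, where H3K27ac covered all 1325 bp in both genotypes. H3K4me3 ended 384 bp short of it in Olig2cKO tumours and 489 bp short of it in control tumours. The 4 sites thus showed 4 patterns of marks.

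For the 2 sites without Olig2cKO H3K27ac, the distance to the nearest such peak lay on both sides of the usual one. Over all 2395 Olig2 peaks of this kind the median distance was 7.84 kb. Of these, 22.3% had such a peak as near as Olig2 peak 3 or nearer, and 61.2% had one as near as Olig2 peak 1 or nearer.

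**Figure D4:**
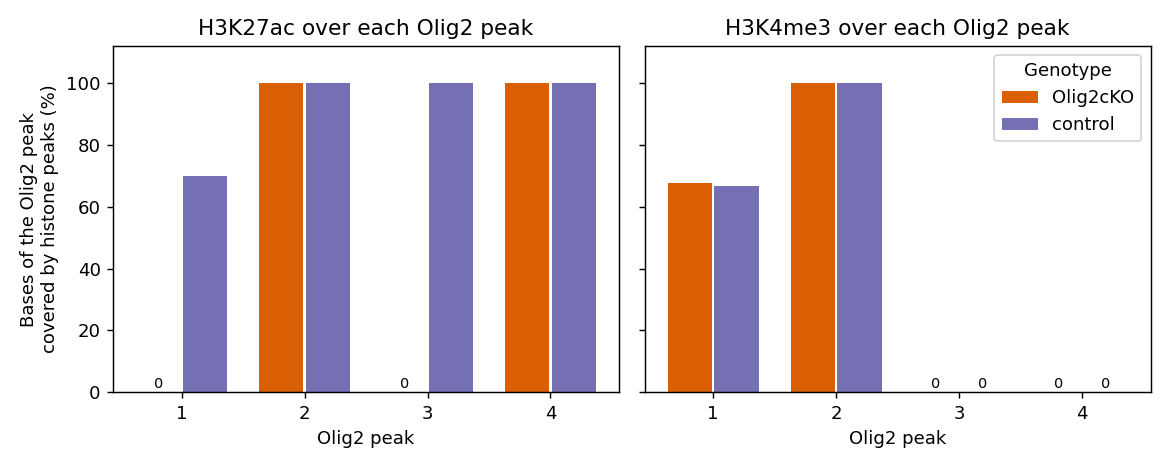
Share of the bases of each of the 4 Olig2 peaks that H3K27ac peaks (left) or H3K4me3 peaks (right) cover, in percent, with Olig2cKO bars left of control bars and 1 library per bar. At Olig2 peaks 1 and 3 H3K27ac covers 0% in Olig2cKO tumours and 69.8% and 100% in control tumours, while H3K4me3 bars are nearly equal at every site.

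The window was rich in H3K4me3 peaks for its length. Among windows of 100 kb with at least 1 peak of the same list, as many peaks or more were found in 2.86% for H3K4me3 of Olig2cKO tumours and in 0.956% for H3K4me3 of control tumours. The control count of 10 includes split peaks, and control peaks 6, 7 and 9 were weak in their list. With peaks within 1 kb merged, each H3K4me3 list held 7 peaks here, and the shares of windows were not recomputed for merged peaks. For H3K27ac the shares were 36.6% in Olig2cKO tumours and 18.8% in control tumours, and for Olig2 the share was 24.6%. The 4 Olig2 peaks compare with a median of 2 in such windows.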

How the data were processed

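ChIP-seq was done on 5 libraries, 1 per group, and grouped by the labels. Peaks are on mm9, and CASAVA, Bowtie2 and MACS are named per the submitters' processing notes, without versions, settings or mention of an input library. The deposited lists give a start, an end and a score for every peak, assigned by the authors' peak caller. The lowest score of each list lay between 50.00 and 50.02. Scores rank peaks within a library, and read depth is unknown.

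Python 3.11.15, numpy 2.4.6 and pandas 2.3.3 served to find overlaps of at least 1 bp, which were tested on simulated lists and checked against bedtools 2.31.1. Intervals are from scipy 1.17.1 and figures from matplotlib 3.10.9. Starts were raised by 1 to count from 1. Promoters and gene order come from RefSeq tables of GRCm38.p6, whose coordinates were not used. Promoters were found for 6 of the 8 genes looked up.

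The window, its members, the lists and the alternatives were chosen with earlier results of these data known. All Olig2 peaks, all genotype-only histone peaks, the peaks nearest to each gene position and the 3 highest scores per list were to be named. The GC box was chosen after the promoter sequences were seen. The full genotype that all groups share is not reported here.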

Additional observations from a re-analysis of the deposited data

How the results depend on the processing

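The 19 counts and lengths of the window were recomputed under 6 alternatives, and the 9 counts of overlaps also under an overlap of 50% of the shorter peak and with gaps of up to 1 kb allowed between partners. All 9 stayed within 1.5 times their value in these last, a limit that includes 1.5 itself. With gaps allowed, Olig2 peaks on H3K4me3 rose from 2 to 3 in each genotype. All 19 stayed within it with lists of equal length, with peaks within 1 kb merged and with the middle of a peak deciding membership. Lists of equal length and the middle rule left every window peak in place, so they could not move any value. The 2 Olig2 sites with control and without Olig2cKO H3K27ac stayed 2 under the 7 alternatives that keep the window. Several of these could not change this count. Lists of equal length and the middle rule moved no peak. The nearest Olig2cKO H3K27ac peaks lay 10.4 and 2.65 kb away, beyond the reach of 1 kb gaps or merging. Cutting the control lists alone could only remove such sites. These sites were 2 of 4 Olig2 peaks on control H3K27ac in the main result and 2 of 3 with the upper 50% of each list. The wider window held 3 such sites among 11 Olig2 peaks on control H3K27ac.

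With the upper 50% of each list by score, H3K4me3 had 5 peaks in Olig2cKO and 4 in control tumours, control H3K4me3 covered 8957 bp, and 1 Olig2 peak lay on Olig2cKO H3K27ac. Peaks without a partner were then 1 of 5 for Olig2cKO H3K27ac, 1 of 4 for control H3K27ac and 1 of 5 for Olig2cKO H3K4me3. Setting the upper 50% of the control lists against the whole Olig2cKO lists, chosen after seeing the data, gave 4 control H3K4me3 peaks over 8957 bp and 1 Olig2 peak on Olig2cKO H3K27ac. Peaks without a partner were 1 of 5 for Olig2cKO H3K27ac, 1 of 4 for control H3K27ac and 4 of 8 for Olig2cKO H3K4me3. Both alternatives hold fewer peaks by construction. A shorter control list can only raise the number of Olig2cKO peaks without a partner. The shares of the whole lists were not computed under these cuts, so the counts cannot be set against them.

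A window wider by 50 kb on each side held 11 Olig2 peaks, 14 Olig2cKO and 16 control H3K27ac peaks, and 16 Olig2cKO and 20 control H3K4me3 peaks. In it, 1 of the 20 control H3K4me3 peaks had no partner, against 8.13% of the whole control list. Olig2 peaks lay on H3K27ac of Olig2cKO tumours in 8 cases and of control tumours in 11, and on H3K4me3 of Olig2cKO tumours in 7 and of control tumours in 8. Covered lengths were 10056 bp for Olig2, 27423 bp for Olig2cKO and 34840 bp for control H3K27ac, and 32641 bp for Olig2cKO and 30974 bp for control H3K4me3.

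No paired analysis was possible because each group has 1 library, so leaving out a replicate was not possible either. Read depth is unknown.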
